A study of Mus musculus with 2 samples.

Results

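The nuclear genes of the mitochondrial respiratory chain were compared between stretched and control mouse back skin. Members were taken by symbol: Nduf genes of the a, b, c, s and v series, Sdha to Sdhd, all Uqcr genes, the Cox4 to Cox8 genes followed by a letter, all Atp5 genes, and Cyc1 and Cycs. This gave 94 of the 24421 gene symbols, and 92 of them exceeded 3 counts in the control or the stretched library. The other two, Cox7b2 and Cox8c, had 0 counts in both libraries, which allows up to 3 counts, or 0.212 CPM (the count scaled to a library total of 1e6) in control skin and 0.258 CPM in stretched skin. Of the 92 measured members, 36 encode subunits of complex I, 4 of complex II, 9 of complex III, 16 of complex IV and 15 of complex V. Cycs encodes cytochrome c, 7 are assembly factors of complex I (Ndufaf1 to Ndufaf7), and 4 carry a family name without being a subunit of the complex it names (Atp5s, Atp5sl, Cox7a2l and Ndufa4l2). Ndufa4 was counted with complex IV, where its protein is now placed.

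The skin came from wild type C57BL6/J mice, and the methods describe 8-week-old females whose hair was in telogen, the resting phase of the hair cycle. A device fixed on the back stretched the skin for 5 days, with an initial strain of 33% that the methods describe as raised each day, and control skin was not strained. Each condition has 1 library of the whole skin layer, made from total RNA, and the number of mice behind each library is not given in the sources used here. There is therefore no replicate check, no p-value is given, and every interval below covers counting error only.

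The respiratory chain passes electrons from NADH (complex I) and succinate (complex II) through complex III and cytochrome c to oxygen at complex IV, and complex V, the ATP synthase, uses the resulting proton gradient to make ATP. Muscle fibres and brown adipocytes are rich in these proteins. Some complex IV subunits exist as a form made mainly in striated muscle, and in brown fat for some, and as a form made in most other cells. Whole-layer mouse skin includes a sheet of striated muscle under the dermis, so reads of these genes can come from muscle as well as from skin cells. In bulk RNA, fewer cells of a type and less RNA per cell cannot be told apart.

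The control library held 14152379 counts on named genes and the stretched library 11648655. The member genes took 1.05% of the control counts and 0.900% of the stretched counts. Most marker lists of the cell types in the tissue moved between the libraries. The summed level of 12 adult skeletal muscle markers was 34273 CPM in control and 24179 CPM in stretched skin, and all 12 were detected: 9 were lower in stretched skin, among them Myh4, the fast IIb myosin heavy chain (log2 ratio -4.57), and 3 were higher, Myh1, Myh2 and the oxygen-binding myoglobin gene Mb. With the libraries scaled by the median ratio over genes in place of their totals (median of ratios), 8 were lower and 4 higher, the actin gene Acta1 being the one that changed sides. The 5 developing muscle markers, such as the embryonic myosin gene Myh3, summed to 48.4 CPM and 1222 CPM, and all 5 were higher in stretched skin. The 5 brown adipocyte markers summed to 93.0 and 96.9 CPM, with Cidea higher, Ppargc1a lower, Dio2 and Elovl3 with intervals that included 0, and the defining marker Ucp1 at 0 counts in both libraries. The 5 interfollicular keratinocyte markers moved little, with sums of 14554 and 15540 CPM and 4 of 5 higher. The summed level of 6 macrophage markers, all higher, was 582 CPM in control and 1411 CPM in stretched skin, and that of 5 fibroblast markers, all higher, was 40584 and 76642 CPM. All 6 white adipocyte markers were lower (1295 and 823 CPM), as were all 5 hair cortex keratins (1098 and 120 CPM). The part of these shifts in the respiratory chain values was not tested. Whether the 2 libraries were at the same stage of the hair cycle was not tested either.

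Respiratory chain transcripts were lower in stretched skin as a group, by a small and similar amount in most members. Their summed level was 10546 CPM in control and 8996 CPM in stretched skin, a log2 ratio of -0.23 (exact 95% interval -0.24 to -0.22). Log2 ratios are of CPM, stretched over control, throughout. The median log2 ratio of the 92 members was -0.22, beside -0.12 for all 16255 genes above 3 counts, so that the members lay 0.10 below the median gene (relative median -0.10). The ratio was under 1 in 80 members and over 1 in 12, while over all 16255 genes it was under 1 in 9993 and over 1 in 6262. Of the 92 members, 65 lay below the all-gene median.

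Counts of members past a rule were read against the same rule over all genes. The exact interval of the log2 ratio lay wholly below 0 for 57 of 92 members (62.0%), against 33.5% of all genes, and wholly above 0 for 3 members (3.26%), against 18.1% of all genes. It included 0 for the other 32. Below, "lower" and "higher" without further comment mean such an interval. Because this rule favours genes with many counts, it was repeated for genes whose 2 libraries together gave 100 counts or more. There it was met downward by 57 of 89 members (64.0%), against 40.2% of all genes, and upward by 3 (3.37%), against 20%. At 1000 counts or more, 49 of 71 members met it downward, beside 2778 of 5700 genes, and 3 met it upward, beside 1322. The 33.5% set beside each complex and list below is over all genes above 3 counts, without this matching of depth. With the libraries scaled by the median of ratios, 37 members (40.2%) lay below 0, against 23.4% of all genes, and 8 (8.70%) lay above, against 24.7%. That scaling moved every log2 ratio up by 0.11, so 20 members no longer had an interval below 0. A ratio of 0.5 or less was reached by 1 member, Cox7a1, against 5.47% of all genes, and a ratio of 2 or more by none of the 92, against 6.32%.

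**Figure D1:**
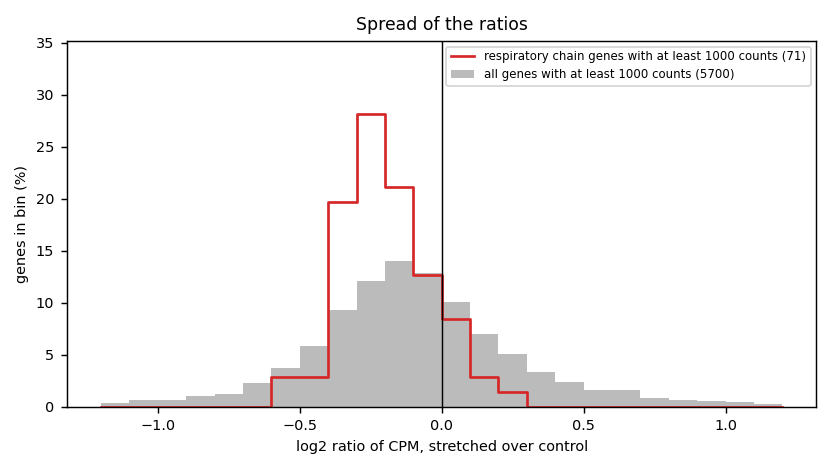
Distribution of log2 ratios (stretched over control CPM) among genes with 1000 counts or more in total, as the percent of genes in each 0.1-wide bin from -1.2 to 1.2, for the 71 respiratory chain genes (line) and all 5700 genes (filled). The members form a narrow peak below 0, with 90.1% of them between -0.4 and 0.1, where 58.3% of all genes lie.

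The members also differed little among themselves. Among genes with 1000 counts or more in total, where counting error is small, the 71 members had an interquartile range of 0.20 log2 units and the 5700 genes overall one of 0.41. A narrow range was not particular to the members. At any count above the floor it was 0.21 for the 92 members, 0.13 for tricarboxylic acid cycle genes and 0.22 for mitochondrial ribosomal protein genes. The other mitochondrial lists described below had ranges from 0.27 to 0.35. Of the 71, 64 fell between -0.4 and 0.1. Over all 92 members the lowest ratio was that of Cox7a1 at -1.09, followed by Sdhb at -0.60, and the highest that of Ndufb7 at 0.21.

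**Figure D2:**
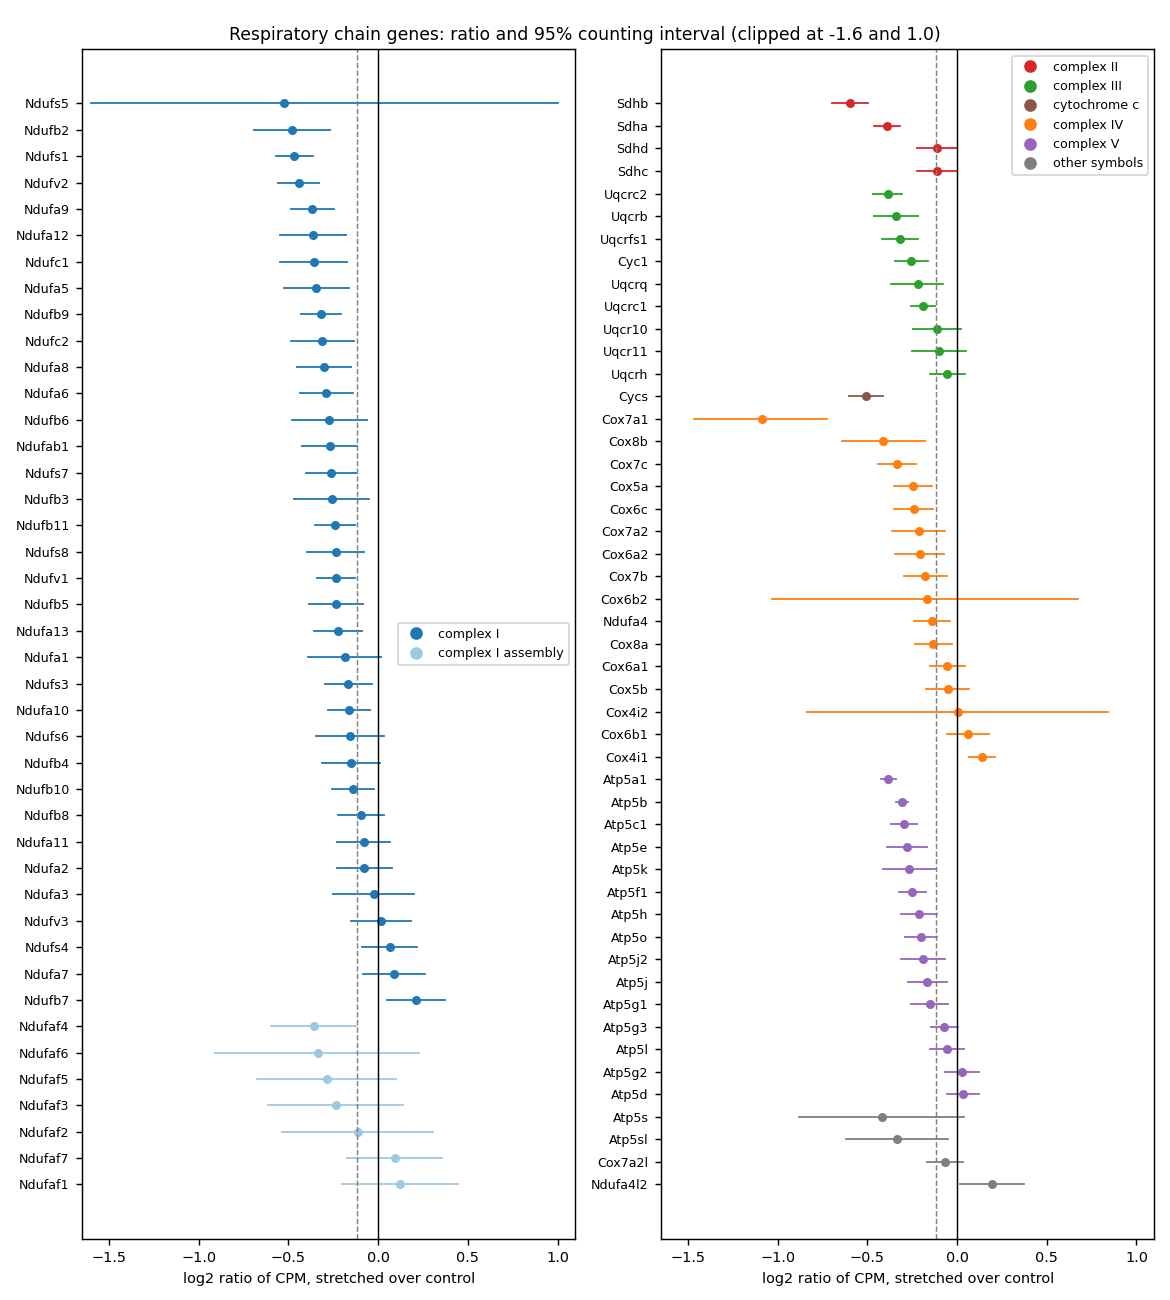
Log2 ratio (stretched over control CPM, horizontal axis) of the measured members but 1, grouped by complex, with exact 95% intervals for counting error, clipped at -1.6 and 1.0, 1 library per condition, and a dashed line at the all-gene median. Cox7a1 lies farthest left at -1.09, while Cox4i1, Ndufa4l2 and Ndufb7 have intervals wholly above 0.

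Complex I, the NADH dehydrogenase, had a median log2 ratio of -0.24 over 36 subunits, with 24 lower (66.7%, against 33.5% of all genes), 1 higher and 11 whose interval included 0. With the median of ratios 16 were lower (44.4%, against 23.4%) and 3 of 36 higher, below the 24.7% of all genes. The conserved core subunits named here were lower, although the intervals of Ndufs3 and Ndufs8 included 0 with the median of ratios (-0.056 and -0.13). In the N module, which takes up NADH, Ndufs1, an iron-sulfur subunit, went from 2001 to 1192 counts (log2 ratio -0.47, -0.57 to -0.36). Ndufv2, another iron-sulfur subunit, went from 1604 to 971 counts (-0.44), and Ndufv1, which binds FMN and NADH, from 1774 to 1239 counts (-0.24). In the Q module, which hands electrons to ubiquinone, the log2 ratio was -0.26 for Ndufs7 (1011 and 694), -0.24 for Ndufs8 (808 and 564) and -0.17 for Ndufs3 (1129 and 828). The summed N module core had a log2 ratio of -0.38.

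The 29 supernumerary subunits of complex I, which surround the core, had a median of -0.23, and 17 of them were lower (58.6%, against 33.5% of all genes). With the median of ratios it was 11 (37.9%, against 23.4%). Ndufb2 had the lowest ratio among those with at least 100 counts, with 505 and 298 counts (-0.48, -0.69 to -0.27). Ndufb7 was the 1 higher subunit, with 633 and 603 counts (0.21, 0.05 to 0.37), or 0.16 with an interval including 0 once the median of genes of like GC content was subtracted. Ndufs5 stood apart in level, with 7 counts in control and 4 in stretched skin, while every other complex I subunit had at least 367 counts in control skin. Of the distinct 76-base stretches in the transcripts of Ndufs5, 15.5% also occur in transcripts of other genes, among them 1 pseudogene. The part of these stretches in its low count was not tested. Its interval ran from -2.75 to 1.45. Of the 7 assembly factors, which build the complex without staying in it, 1 was lower, below the 33.5% of all genes. It was Ndufaf4 (377 and 242 counts, -0.36). The other 6 had intervals that included 0, with log2 ratios from -0.34 to 0.12.

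Complex II, succinate dehydrogenase, split by the position of its subunits. The catalytic pair, Sdha with its bound FAD and the iron-sulfur protein Sdhb, had the lower ratios. Sdha had 4001 counts in control and 2510 in stretched skin (-0.39), and Sdhb had 2228 and 1212 (-0.60, -0.70 to -0.50), the lowest value of complexes I, II, III and V among genes with at least 100 counts. The membrane anchors Sdhc (1527 and 1164 counts) and Sdhd (1517 and 1155 counts) were both at -0.11. The interval of Sdhc just included 0 and that of Sdhd ended just below it, a call lost with the median of ratios. Both anchors lay close to the all-gene median of -0.12. The summed catalytic pair stood at -0.46 (-0.52 to -0.40) and the summed anchors at -0.11 (-0.19 to -0.03), and these intervals did not overlap.

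Complex III, which passes electrons from ubiquinol to cytochrome c, had a median of -0.22 over 9 subunits, with 6 lower (66.7%, against 33.5% of all genes) and 3 whose interval included 0. With the median of ratios 5 were lower (55.6%, against 23.4%). The core protein Uqcrc2 had its lowest ratio, with 3045 and 1916 counts (-0.39), and the other core protein, Uqcrc1, had 4187 and 3018 counts (-0.19). Both redox subunits were lower: the Rieske iron-sulfur protein Uqcrfs1 went from 2084 to 1377 counts (-0.32) and cytochrome c1, Cyc1, from 2413 to 1664 counts (-0.26). Uqcrh, the hinge protein, had the highest ratio of the complex, with 1935 and 1534 counts (-0.054, -0.15 to 0.04). Cytochrome c itself, the mobile carrier to complex IV encoded by Cycs, had 2435 and 1408 counts (-0.51, -0.61 to -0.41). Of its 76-base stretches, 23.9% also occur in transcripts of other genes.

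The 250 bases before the RefSeq start of Cycs are shown because, among members with 1000 counts or more in total, only Sdhb had a lower ratio, and because the window holds the letters GCATGCGC, a core of sites for NRF1, a known activator of respiratory chain genes. The window is chr6:50566570-50566819 of build GRCm38.p6, written 5′ to 3′ on the minus strand with the match in capitals. The match began 60 bases before the RefSeq start. The RefSeq window of Sdhb holds the same letters, 54 bases before its RefSeq start, but this lies past the start that GENCODE gives the gene.
Cycs: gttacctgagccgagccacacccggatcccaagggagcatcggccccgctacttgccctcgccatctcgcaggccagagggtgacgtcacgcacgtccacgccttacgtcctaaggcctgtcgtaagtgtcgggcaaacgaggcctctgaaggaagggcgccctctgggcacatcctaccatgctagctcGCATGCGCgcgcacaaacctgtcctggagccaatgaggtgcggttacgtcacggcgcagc

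Of the 94 members, 77 had a RefSeq window, and 10 of these (13.0%) held GCATGCGC on either strand within the 250 bases, against 2.56% of 27025 genes with a window. Those 10 members had log2 ratios from -0.60 to 0.03, and the 66 measured members with a window but without it ranged from -1.09 to 0.21. The letters TCAAGGTCA, a form of the site of estrogen-related receptors, stood in 1 of the 77 windows (1.30%), that of Atp5g3, against 0.422% of genes. A match of letters is a description of the window and no evidence of binding.

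Complex IV, cytochrome c oxidase, had the median nearest to that of all genes, -0.17 over 16 nuclear subunits, with 10 lower (62.5%, against 33.5% of all genes), 1 higher and 5 whose interval included 0. The median of ratios gave 5 lower (31.2%) and 2 higher, against the 23.4% and 24.7% of all genes. Cox4i1, which helps to set the activity of the enzyme, was the higher one, with 3228 counts in control and 2928 in stretched skin (0.14, 0.07 to 0.21), and its interval included 0 after the median of genes of like exon length (0.02) or GC content (0.053) was subtracted. Cox5a had 1829 and 1270 counts (-0.25), and Cox5b had 1306 and 1037 counts (-0.052, -0.17 to 0.07). Without the 3 muscle isoforms the median of the complex was -0.14.

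Cox7a1, Cox8b and Cox6a2, the muscle isoforms, had intervals below 0. Cox7a1 (chr7:30184144-30186078, plus strand, build mm10) had 225 counts in control and 87 in stretched skin, a log2 ratio of -1.09 (-1.46 to -0.73), or -0.98 with the median of ratios. Its counterpart Cox7a2 (chr9:79755361-79759878, minus strand) had 906 and 643 counts (-0.21). The log2 ratio of the pair's ratios was -0.88 (exact interval -1.28 to -0.48), a value that the scaling of the libraries cannot change. Cox7a1 made up 19.9% of the pair's counts in control skin (17.6% to 22.3%) and 11.9% in stretched skin (9.66% to 14.5%).

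Cox8b (chr7:140898945-140900446, minus strand) had 407 and 252 counts (-0.41, -0.64 to -0.18), and Cox8a (chr19:7215153-7217616, minus strand) had 1780 and 1337 counts (-0.13). The ratio of this pair was lower by a smaller step, -0.28 (-0.53 to -0.03), and the share of Cox8b in its counts was 18.6% and 15.9%. Cox6a2 (chr7:128205435-128206387, minus strand) had 1059 and 755 counts (-0.21, -0.34 to -0.07, and -0.097 with an interval including 0 with the median of ratios), and Cox6a1 (chr5:115345642-115348981, minus strand) had 1874 and 1486 counts (-0.054). Here the difference between the pair was -0.15 (-0.32 to 0.02), which includes 0. The 3 muscle isoforms thus differed among themselves, with Cox7a1 outside the intervals of the other two. Of the exon bases of Cox6a2, 10.3% overlap Itgad.

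**Figure D3:**
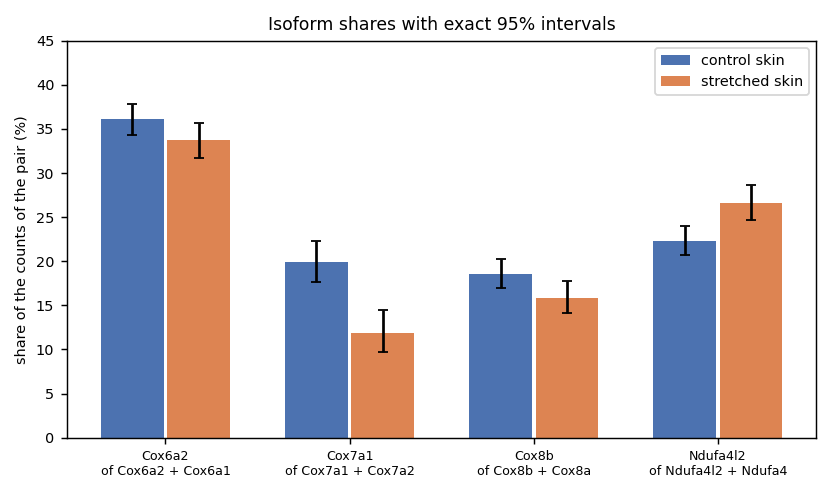
Share of 1 isoform in the summed counts of its pair (percent, vertical axis) in control and stretched skin, with exact 95% intervals for counting error, for Cox6a2, Cox7a1, Cox8b and Ndufa4l2 with their counterparts. The share of Cox7a1 went from 19.9% to 11.9%, that of Ndufa4l2 from 22.3% to 26.6%, and the bars of Cox6a2 and Cox8b differ less.

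Windows of the same kind, again from RefSeq, are given for the Cox7a and Cox8 pairs, whose muscle forms differed from their counterparts. They are chr7:30183921-30184170 (plus strand), chr9:79759854-79760103, chr7:140900447-140900696 and chr19:7217617-7217866 (all minus strand), with any match to CAGCTG, an E-box of the kind bound by myogenic factors, in capitals. Those of Cox7a1 and Cox7a2 run slightly past the gene starts given above, which are GENCODE's.
Cox7a1: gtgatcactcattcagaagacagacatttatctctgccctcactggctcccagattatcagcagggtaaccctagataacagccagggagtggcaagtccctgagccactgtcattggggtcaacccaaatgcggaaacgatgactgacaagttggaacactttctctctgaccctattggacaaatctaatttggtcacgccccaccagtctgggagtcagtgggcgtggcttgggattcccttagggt
Cox7a2: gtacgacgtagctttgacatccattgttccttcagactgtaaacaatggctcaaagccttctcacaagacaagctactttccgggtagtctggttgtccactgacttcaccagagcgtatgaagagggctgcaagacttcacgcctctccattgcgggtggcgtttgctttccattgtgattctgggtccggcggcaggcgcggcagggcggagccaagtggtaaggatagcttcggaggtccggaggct
Cox8b: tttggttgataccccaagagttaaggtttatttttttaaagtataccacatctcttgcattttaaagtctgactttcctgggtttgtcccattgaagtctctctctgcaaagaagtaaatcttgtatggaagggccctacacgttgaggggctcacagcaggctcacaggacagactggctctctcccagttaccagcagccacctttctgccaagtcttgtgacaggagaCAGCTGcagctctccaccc
Cox8a: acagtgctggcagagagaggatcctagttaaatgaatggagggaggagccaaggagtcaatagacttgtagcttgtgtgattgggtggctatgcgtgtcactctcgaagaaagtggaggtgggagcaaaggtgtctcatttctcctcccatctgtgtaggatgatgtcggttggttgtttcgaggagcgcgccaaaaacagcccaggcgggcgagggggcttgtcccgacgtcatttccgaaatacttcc

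The window of Cox8b holds CAGCTG 19 bases before the RefSeq start, and those of Cox7a1, Cox7a2 and Cox8a hold none of the letters searched. CAGCTG was found in 6 of the 77 member windows (7.79%), against 14.7% of genes, and TAAAAATA, a form of the MEF2 site, in 0 of 77, against 2.84%.

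Complex V, the ATP synthase, had a median of -0.20 over 15 subunits, with 11 lower (73.3%, against 33.5% of all genes), 0 higher and 4 whose interval included 0. The median of ratios gave 7 lower (46.7%, against 23.4%) and 2 of 15 higher, below the 24.7% of all genes. Its catalytic F1 head held the most abundant members of the whole set. Atp5b, the catalytic beta subunit, had 17816 counts in control and 11837 in stretched skin (-0.31), Atp5a1, the alpha subunit, had 12928 and 8164 (-0.38, the lowest of the complex), and Atp5c1, the gamma subunit of the rotor, had 3816 and 2563 (-0.29). Atp5d, the delta subunit, had the highest ratio of the complex, with 2235 and 1881 counts (0.03, -0.06 to 0.12). Summed counts stood at -0.31 for F1, -0.22 for the peripheral stalk that holds it, -0.14 for the other membrane subunits and -0.063 for the c-ring. The c-ring subunit is encoded by Atp5g1, Atp5g2 and Atp5g3. Against Atp5g3, the ratio was -0.081 for Atp5g1 and 0.10 for Atp5g2, both with intervals that included 0, and 35.7% of the 76-base stretches of Atp5g2 also occur in transcripts of other genes.

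Of the complexes by summed counts, complex II was at -0.34 (-0.38 to -0.29), complex V at -0.25 (-0.27 to -0.23), complex I at -0.24 (-0.26 to -0.21), complex III at -0.23 (-0.27 to -0.20) and complex IV at -0.12 (-0.15 to -0.09). The intervals of complexes I, III and V overlapped. That of complex IV lay above the others, and that of complex II below them. By medians relative to all genes the complexes lay close together, from -0.13 in complex II to -0.05 in complex IV. After the median of genes of like exon length was subtracted, they ran from -0.22 in complex II to -0.15 in complex IV. With like GC content instead, they ran from -0.15 in complex I to -0.06 in complex IV, and complex II, at -0.12, was not the lowest.

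Among paralogs outside the muscle pairs, Ndufa4l2 was higher, with 541 and 510 counts (0.20, 0.02 to 0.37), with an interval that included 0 after the same subtractions (0.13 for length and 0.097 for GC content). Its relative Ndufa4 had 1881 and 1406 counts (-0.14), and the log2 ratio of the pair's ratios was 0.33 (0.13 to 0.54), but 0.14 (-0.07 to 0.34) with the GC subtraction for both genes, which includes 0, and 0.39 (0.19 to 0.60) with the length subtraction. Ndufa4l2 is known as a target of hypoxia signalling. Cox4i2, the form of lung and low oxygen, had 29 and 24 counts, and Cox6b2, a testis form, had 30 and 22, and neither differed from its main form beyond counting error. Cox7a2l, an assembly factor of supercomplexes, had a ratio against Cox7a2 of 0.15 (-0.03 to 0.32), or 0.19 (0.01 to 0.37) with the GC and 0.087 (-0.09 to 0.27) with the length subtraction.

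Levels per length were compared as FPKM, the CPM of a gene divided by its annotated exon length in kilobases. That length covers the exons of all annotated transcripts of a gene, so ranks between genes depend on the annotation. Atp5b (297 FPKM in control and 240 in stretched skin) and Atp5a1 (291 and 224) had the highest levels, followed by Cox8a (203 and 185), Cox6a1 (189 and 182) and Cox4i1 (147 and 162). The muscle forms were below their counterparts in both libraries. Cox6a2 was at 110 and 95.3 FPKM, Cox8b at 79.9 and 60.1 FPKM and Cox7a1 at 29.7 and 14.0 FPKM, against 67.8 and 58.5 for Cox7a2. On this scale Cox7a1 was 30.5% of its pair in control and 19.3% in stretched skin.

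**Figure D4:**
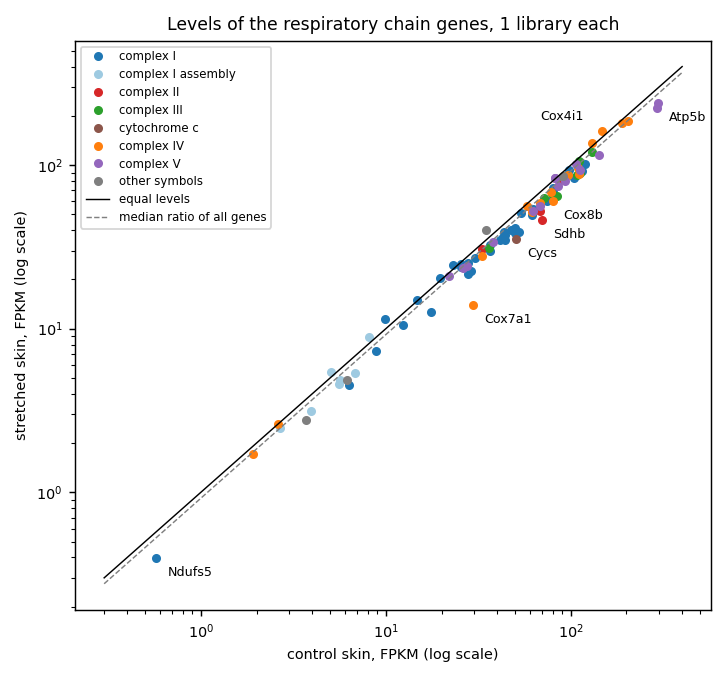
Level of each member in stretched against control skin, in FPKM on log axes, coloured by complex, with the solid diagonal at equal levels, the dashed one at the median ratio of all genes, and 1 library per condition. Most points sit close to and just under the diagonal, from Ndufs5 at 0.575 FPKM in control skin to Atp5b at 297, and Cox7a1 lies farthest below it.

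All 14 genes of the tricarboxylic acid cycle, which feeds the chain with NADH and succinate, were lower (100%, against 33.5% of all genes). Their median was -0.34. Their ratios ran from -0.62 in Idh3a, a catalytic subunit of isocitrate dehydrogenase, to -0.14 in Idh2. With the median of ratios 11 of the 14 stayed below 0 (78.6%, against 23.4% of all genes), and the intervals of Idh2, Idh3g and Dlst included 0. The 77 mitochondrial ribosomal protein genes had a median of -0.11, near that of all genes, from Mrpl1 (-0.57) to Mrpl43 (0.24). Of these, 20 were lower (26.0%, against 33.5% of all genes) and 2 higher. The median of ratios gave 7 lower (9.09%, against 23.4%) and 13 of 77 higher, below the 24.7% of all genes. Of 20 import genes, 6 were lower (30.0%, against 33.5%) and 1 higher, with a median of -0.095. They ran from the receptor Tomm20 (-0.37) to Timm9 (0.32, with an interval that included 0). For them the median of ratios gave 3 lower (15.0%, against 23.4%) and 4 of 20 higher, below the 24.7% of all genes. The 37 measured assembly factors with other symbols had a median of -0.15, with 5 lower (13.5%, against 33.5%) and 3 higher, from Taco1 (-0.73) to Uqcc3 (0.40). With the median of ratios 4 were lower (10.8%, against 23.4%) and 7 of 37 higher, below the 24.7% of all genes. The 13 subunits encoded by mitochondrial DNA could not be analysed, because 0 of the 13 symbols searched were among the 24421 gene symbols.

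Regulators of mitochondrial biogenesis had a median of -0.20, and 9 of 20 were lower and 0 higher. The lower ones are 45% of the list, against 33.5% of all genes, and with the median of ratios 6 of 20 (30.0%), against 23.4%. The coactivator Ppargc1a had the lowest ratio, with 123 counts in control and 43 in stretched skin (-1.24, -1.77 to -0.72), and Ppargc1b the highest, with 65 and 62 counts (0.21, with an interval that included 0).

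**Figure D5:**
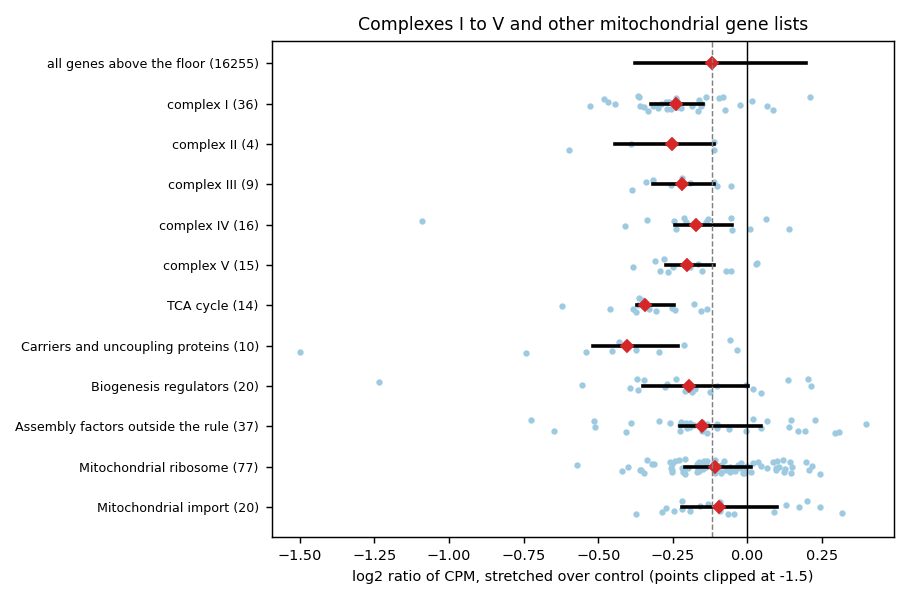
Log2 ratios (stretched over control CPM) of the 5 complexes and the other mitochondrial lists, with a point for each gene, a diamond at the median and a bar over the interquartile range, and a dashed line at the all-gene median of -0.12. Points below -1.5 are drawn at that value, as is Ckmt2. The complexes have medians from -0.25 to -0.17, the tricarboxylic acid cycle one of -0.34, and the ribosomal and import genes lie near the dashed line.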

How the data were processed

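RNA of 1 control and 1 stretched skin sample was sequenced. The authors deposited raw read counts per gene symbol, and the submitters' processing notes name TopHat2 and build mm10. The counting tool and its strand setting are not given in the sources used here, so overlapping genes may share reads. Counts were scaled by library total, and counts under 3 were raised to 3 before a ratio was taken. Intervals are exact 95% Clopper-Pearson intervals of the stretched share of a gene's counts, and exact conditional odds ratio intervals for pairs, without replicate error. Exon lengths and overlaps came from GENCODE M21, with 23384 symbols matched by name, 661 by synonym and 376 unmatched. Shared stretches were 76 bases long and were sought in annotated transcripts only. Alternatives used edgeR 4.0.16 (TMM) and DESeq2 1.42.0 (median of ratios) for scaling alone. The calculation was tested on simulated data. No test across replicates is possible with 1 library per group. The members and lists were chosen with earlier results of these data known. Named genes were the muscle isoforms and their pairs, core and catalytic subunits, the lowest and highest member of each complex with at least 100 counts over both libraries, and members past a ratio of 0.5 or 2 or with an interval above 0. In other lists these were the lowest and highest genes. Cell type markers, genes with uncertain counts, the remaining regulators and carriers, and the genes whose promoters are shown were added to these. The values of 1 member are not reported here.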

Additional observations from a re-analysis of the deposited data

How the results depend on the processing

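No paired analysis was possible because each condition has 1 library, and for the same reason no library could be left out. Of 205 values recomputed under the alternatives, 188 stayed within the limits set. Part of this was fixed in advance, because a change of scaling cannot move a median relative to all genes. The limits were also wide. The member median of -0.11 with the median of ratios, beside -0.22, fell within them, as did 38 members with an interval below 0 with TMM, beside 57. No member with an interval off 0 and no muscle isoform pair with one changed sign. Outside the members, Slc25a3 and the muscle marker Acta1, both slightly below 0, changed sign with the median of ratios. Small relative medians did too: import genes went from 0.03 to -0.03 (length bins) and -0.092 (no filter, 1 CPM added), and ribosomal genes from 0.01 to -0.02 and -0.10. Counts of members moved with the scaling, since other scalings shifted all ratios up by 0.064 to 0.111. Members with an interval above 0 numbered 3 by total counts, 8 with TMM, 8 with the median of ratios, 8 with the upper quartile and 5 without the 50 most counted genes. With the median subtracted in bins they numbered 1 (exon length) and 0 (GC content). Members with an interval below 0 numbered 57, against 37 with the median of ratios, 38 with TMM or the upper quartile, 45 without the 50 most counted genes, 70 with length bins and 59 with GC bins. The calls within each complex and list with the median of ratios, and the bins for pairs without a muscle isoform, were chosen after seeing the data. The 1 member with a ratio of 0.5 or less became 0 with TMM, the median of ratios, the upper quartile, 1 CPM added (with or without the filter), or without the muscle isoforms. With no filter and 1 CPM added, relative medians were -0.25 for complex II, -0.20 for complex V and -0.34 for the tricarboxylic acid cycle, because the median over all genes then includes those without counts. With length bins the relative medians of all 5 complexes were lower: -0.19 (I), -0.22 (II), -0.19 (III), -0.15 (IV) and -0.16 (V), and the cause was not tested. The median of the members ranged from -0.30 (length bins) to -0.11 (median of ratios).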

Other observations

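A list of mitochondrial carriers, outer membrane channels, uncoupling proteins and creatine kinases was lower in stretched skin in 9 of 10 measured genes, against 33.5% of all genes, and 0 were higher. With the median of ratios it was 8 of 10, against 23.4%. The median log2 ratio was -0.40. The uncoupling protein genes, whose products are relatives of the proton leak protein of brown fat, were among them, with 6876 and 3891 counts for Ucp2 (-0.54) and 233 and 140 for Ucp3 (-0.45). Ckmt2, the mitochondrial creatine kinase of striated muscle, had 2074 counts in control and 404 in stretched skin (-2.08, -2.24 to -1.92), and Ckmt1, the form of other tissues, had 1264 and 1015 (-0.036, -0.16 to 0.08). The log2 ratio of this pair's ratios was -2.04 (-2.24 to -1.85), and the share of Ckmt2 in its counts went from 62.1% to 28.5%. Slc25a4, the ADP/ATP carrier form of muscle and heart, had 8472 and 4167 counts (-0.74), and Slc25a5, the form of most tissues, had 5763 and 3859 (-0.30). Slc25a4 made up 59.5% of that pair in control and 51.9% in stretched skin. These pairs were chosen after their values were seen.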
